A study of Rattus norvegicus with 54 samples.

Results

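The elastic fiber and fibrillin genes were followed through the infarcted rat heart and through hearts treated with a cell sheet. The set held 10 genes, taken by symbol from the 40319 genes listed in each of 54 count tables. They were Eln, which encodes elastin, the fibrillin genes Fbn1 and Fbn2, the fibulin genes Fbln1, Fbln2, Fbln5 and Efemp2, the microfibril-associated genes Mfap4 and Mfap5, and Emilin1. All 10 were found in every table and all passed the filter on low counts in each of the 16 comparisons. The lowest count of any member in any library was 4, for Fbn2, and the other members had at least 155 counts in every library.

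The animals were female athymic rats of the strain F344/NJcl-rnu/rnu, aged 8 weeks, which make no mature T cells. Hearts were collected 1 week after surgery from 6 sham-operated rats, from 6 rats whose left anterior descending coronary artery was tied off and that received nothing further (MI), and from 6 rats with the same ligation onto whose ischemic area a bi-level sheet of human cells was laid (cell sheet). The sheet joined a layer of endothelial progenitor cells with a layer of smooth muscle cells trans-differentiated from mesenchymal stem cells. Below the level of the stitch each left ventricle was split into the anterior wall (infarct zone), the lateral wall (border zone) and the septum (remote zone), so that the zone names of sham hearts mark a position without an infarct. Polyadenylated RNA of each piece was sequenced, which gave 9 groups of 6 libraries. In the labels the number of each library stands under the heading technical replicate, whereas the study describes 6 hearts kept per group and, for the sequencing, 5 to 6 animals, and each library was taken as 1 animal here. Where that is wrong, libraries of a group share an animal, n is too high and the p-values are too small. Reads were aligned to the rat assembly, and whether reads of human transcripts from the sheet contributed to any rat gene was not tested.

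Elastic fibers give arteries, lung and heart their recoil. Tropoelastin, the product of Eln, is laid on microfibrils built of fibrillin, joined by fibulins and the microfibril-associated proteins, and cross-linked by lysyl oxidases. After an infarction, fibroblasts and myofibroblasts replace lost muscle with a scar, and microfibrils there also hold growth factors of the TGF-β family in latent form.

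The libraries held 12699204 to 23397754 counts on genes. Values below are CPM, counts for each 1000000 counts of a library, scaled with the trimmed mean of M values (TMM), which do not account for transcript length, so no gene was ranked against another by its level. In bulk tissue, fewer cells of a type and less RNA per cell cannot be told apart. All 8 cardiomyocyte markers had counts in every group, and their summed level was 17699 to 58556 CPM (median 50172) in the sham infarct zone, 2349 to 28982 CPM (median 9001) in that of MI hearts and 617 to 26465 CPM (median 2124) in that of cell sheet hearts. Sham replicate 5 stood apart from the other sham hearts in each zone, with 12286, 12265 and 7049.8 CPM over 8 macrophage markers against sham medians of 580.4, 623 and 364. In the remote zone of cell sheet hearts, replicate 1 had the highest level of all 10 members. Calls of members and descriptions that change without these libraries are given with and without them. The sizes of the ratios between members are given over all libraries only.

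The first question was what an untreated infarction did to these genes. In MI hearts 10 of 10 members were higher than in sham hearts in the infarct zone, where edgeR's quasi-likelihood test called 22.7% of all genes higher at an adjusted p under 0.05. The border zone also gave 10 of 10, with 18.4% of all genes higher, and the remote zone gave 9 of 10, with 11.7%. Emilin1 was the member not called in the remote zone. The median log2 fold change of the members was 2.05, 1.86 and 1.49 in the infarct, border and remote zone, while that of all genes tested was -0.02, -0.02 and -0.04. All 6 MI hearts lay above all 6 sham hearts for 8 members in the infarct zone (8.72% of genes tested), for 9 in the border zone (7.01%) and for 6 in the remote zone (3.82%). Without sham replicate 5 the remote zone also gave 10 of 10, with 23.7% of all genes higher. That animal was the highest sham heart there for 5 members, Emilin1 among them. Leaving it out widens their differences by construction, so the added call of Emilin1 has no weight as a test.

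**Figure D1:**
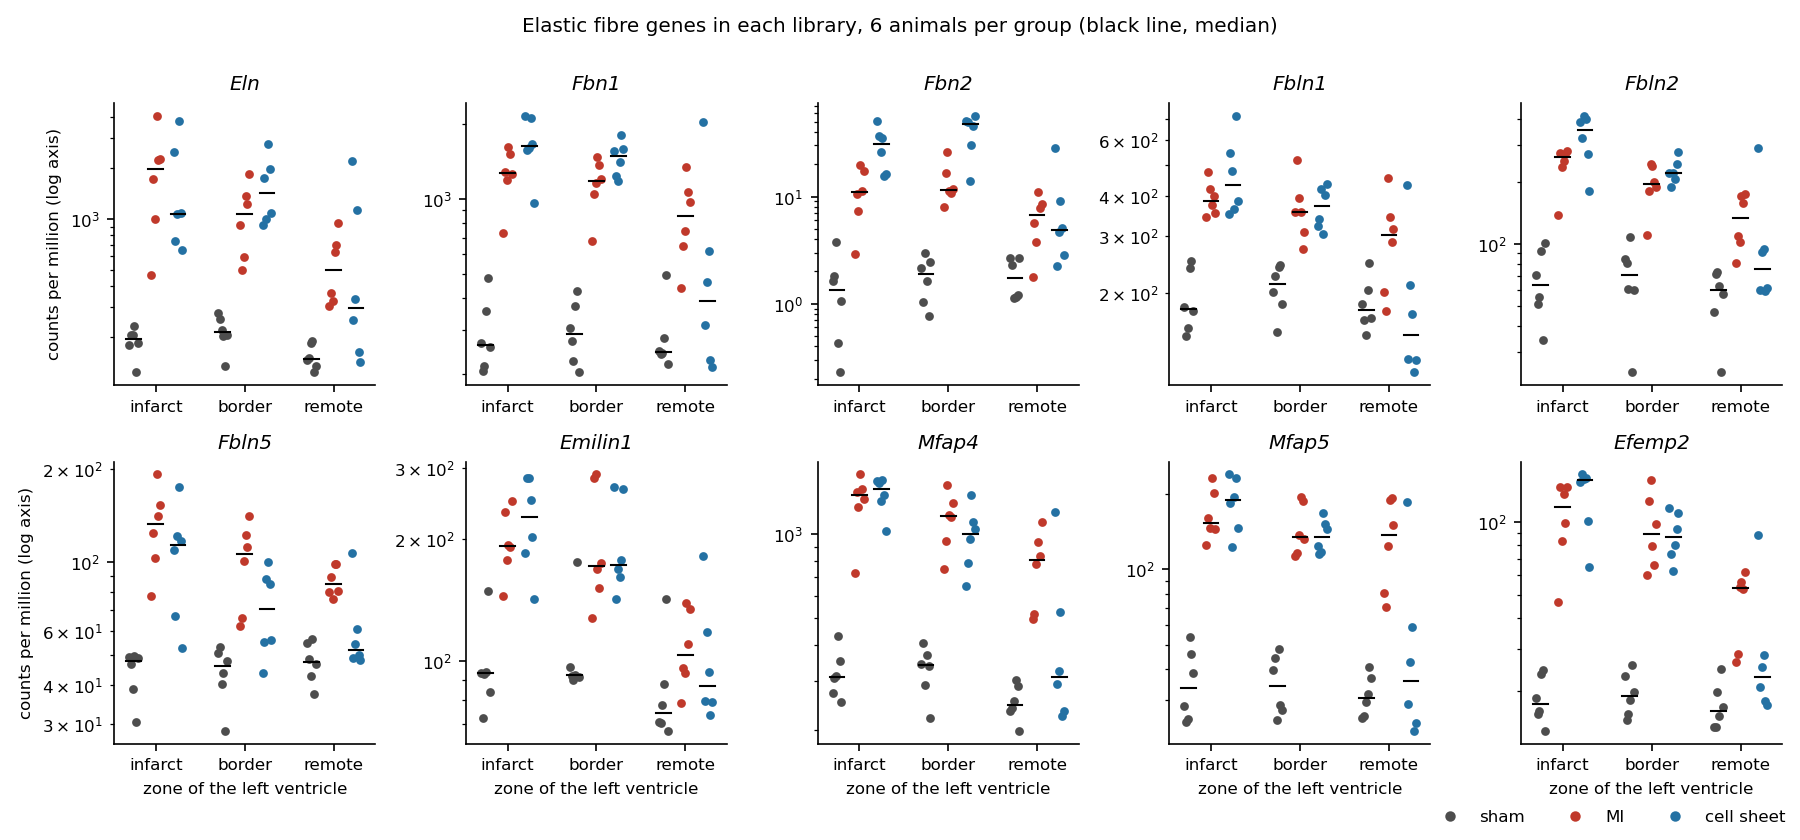
Level of each member in CPM on a log axis, 1 point per library, by zone and treatment, with the median of 6 animals as a black line. Sham points lie low and close together for Eln, Mfap5 and Efemp2, and MI points lie above them in each zone. A single cell sheet animal lies high in the remote zone of every panel, and for Eln another cell sheet animal also lies above the MI points there.

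Elastin, the core of the fiber, showed the largest rise of the set in the infarct zone. Eln lay at 125 to 233 CPM (median 196) in sham hearts, 464 to 4056 CPM (median 1969) in MI hearts and 651 to 3754 CPM (median 1072) in cell sheet hearts there. The MI and cell sheet hearts overlapped widely, and both of their ranges began above the highest sham value. Its border zone values were 136 to 277 CPM (median 214) in sham hearts, 502 to 1847 CPM (median 1068) in MI hearts and 920.5 to 2777 CPM (median 1411) in cell sheet hearts. For the remote zone they were 124 to 191 CPM (median 149) in sham hearts, 305 to 946 CPM (median 499.6) in MI hearts and 144 to 2200.5 CPM (median 296) in cell sheet hearts. MI exceeded sham by 3.36 ± 0.44 (10.3-fold, adjusted p = 0.000206) in the infarct zone, 2.30 ± 0.31 (4.93-fold, adjusted p = 0.000446) in the border zone and 1.81 ± 0.27 (3.5-fold, adjusted p = 0.00122) in the remote zone. The coefficient of variation of Eln was 19.3% in sham, 63.8% in MI and 75.8% in cell sheet infarct zones, and 10.3% in sham hearts without replicate 5.

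The fibrillins form the backbone of the microfibril. Fbn1, the main fibrillin of adult tissue, lay at 204 to 483 CPM (median 261) in sham hearts, 729 to 1613 CPM (median 1272) in MI hearts and 961 to 2157 CPM (median 1633) in cell sheet hearts in the infarct zone. The border zone gave 203 to 429 CPM (median 287) in sham hearts, 679.8 to 1467 CPM (median 1179) in MI hearts and 1183 to 1803 CPM (median 1485) in cell sheet hearts. No infarcted heart of either treatment fell into the sham range in these zones. Remote zone levels of Fbn1 were 219 to 496 CPM (median 245) in sham hearts, 443 to 1340.1 CPM (median 858) in MI hearts and 214 to 2031 CPM (median 389) in cell sheet hearts, and the MI and sham ranges overlapped there, through sham replicate 5 at 496 CPM. For Fbn1, MI hearts exceeded sham hearts by 2.09 ± 0.26 (4.25-fold, adjusted p = 0.000151) in the infarct zone, 1.94 ± 0.23 (3.83-fold, adjusted p = 0.000232) in the border zone and 1.59 ± 0.28 (3.01-fold, adjusted p = 0.00211) in the remote zone.

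Fbn2, a fibrillin best known from developing tissue, was scarce in sham hearts and its fold changes rest on few counts there. It lay at 0.229 to 3.76 CPM (median 1.34) in sham hearts, 2.92 to 19.8 CPM (median 11) in MI hearts and 15.6 to 51.1 CPM (median 30.6) in cell sheet hearts in the infarct zone, where sham libraries held 4 to 50 counts and MI libraries 55 to 453. The highest sham value exceeded the lowest MI value, and all cell sheet hearts lay above all sham hearts. In the border zone Fbn2 was 0.763 to 2.95 CPM (median 1.89) in sham hearts, 7.91 to 25.9 CPM (median 11.4) in MI hearts and 13.8 to 56.9 CPM (median 47.6) in cell sheet hearts. The order sham, MI, cell sheet held for the medians of both zones, with overlap between MI and cell sheet hearts. Remote zones held 1.13 to 2.69 CPM (median 1.75) in sham hearts, 1.76 to 11.1 CPM (median 6.78) in MI hearts and 2.23 to 28.4 CPM (median 4.91) in cell sheet hearts, with overlap between all 3 treatments. The rise of Fbn2 in MI over sham hearts was 2.96 ± 0.62 (7.81-fold, adjusted p = 0.00285) in the infarct zone, 2.95 ± 0.38 (7.72-fold, adjusted p = 0.000355) in the border zone and 1.79 ± 0.41 (3.46-fold, adjusted p = 0.00802) in the remote zone.

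The fibulins bridge elastin, microfibrils and basement membranes. Fbln1 lay at 146 to 251 CPM (median 178) in sham hearts, 345 to 478 CPM (median 388) in MI hearts and 351 to 716 CPM (median 435) in cell sheet hearts in the infarct zone. Its border zone values were 150.3 to 244 CPM (median 213) in sham hearts, 274 to 518 CPM (median 357) in MI hearts and 306 to 436 CPM (median 373) in cell sheet hearts, and in the remote zone it was 148 to 248 CPM (median 176) in sham hearts, 175 to 457 CPM (median 303) in MI hearts and 113 to 434 CPM (median 148) in cell sheet hearts. MI hearts lay above the sham range in the infarct and border zones and overlapped it in the remote zone. Between MI and sham hearts Fbln1 differed by 1.05 ± 0.16 (2.07-fold, adjusted p = 0.000482) in the infarct zone, 0.83 ± 0.17 (1.78-fold, adjusted p = 0.004) in the border zone and 0.67 ± 0.21 (1.59-fold, adjusted p = 0.035) in the remote zone, the smallest rise of the set in the border zone. The remote zone call of Fbln1 was lost when any 1 animal other than sham replicate 5, MI replicate 1 or MI replicate 2 was left out, with adjusted p from 0.0571 to 0.0787.

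Fbln2 lay at 34.3 to 101 CPM (median 63.1) in sham hearts, 138 to 281 CPM (median 262) in MI hearts and 179 to 417 CPM (median 357) in cell sheet hearts in the infarct zone. Every MI and cell sheet heart lay above the sham range, and 1 MI heart, replicate 1, lay below the other 5. The border zone gave 24.1 to 107.5 CPM (median 70.6) in sham hearts, 111 to 243 CPM (median 194) in MI hearts and 188 to 278 CPM (median 220.3) in cell sheet hearts. Remote zone levels of Fbln2 were 24 to 72.9 CPM (median 59.9) in sham hearts, 81 to 174 CPM (median 133) in MI hearts and 59.1 to 290.3 CPM (median 76) in cell sheet hearts. The MI hearts cleared the sham range in all 3 zones. Its log2 fold change between MI and sham was 1.84 ± 0.26 (3.59-fold, adjusted p = 0.000357) in the infarct zone, 1.47 ± 0.30 (2.77-fold, adjusted p = 0.00389) in the border zone and 1.24 ± 0.26 (2.37-fold, adjusted p = 0.00497) in the remote zone.

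Fbln5, which is needed for elastin to assemble on microfibrils, lay at 30.4 to 49.5 CPM (median 47.9) in sham hearts, 77.5 to 192 CPM (median 133) in MI hearts and 52.7 to 174 CPM (median 113) in cell sheet hearts in the infarct zone. Its border zone values were 28.4 to 53.2 CPM (median 46) in sham hearts, 61.9 to 140.5 CPM (median 106) in MI hearts and 43.9 to 99.7 CPM (median 70.3) in cell sheet hearts, where cell sheet hearts reached down into the sham range and MI hearts did not. In the remote zone it was 37.5 to 56.3 CPM (median 47.6) in sham hearts, 76.1 to 98.8 CPM (median 85.1) in MI hearts and 48.3 to 107 CPM (median 52.1) in cell sheet hearts, and the MI range stayed clear of the sham range with little spread. The MI hearts exceeded the sham hearts by 1.58 ± 0.20 (3-fold, adjusted p = 0.000196) in the infarct zone, 1.19 ± 0.22 (2.27-fold, adjusted p = 0.00225) in the border zone and 0.87 ± 0.11 (1.82-fold, adjusted p = 0.000639) in the remote zone.

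Efemp2 encodes fibulin-4, which brings lysyl oxidase to elastin. It lay at 13.7 to 24.5 CPM (median 17.7) in sham hearts, 46.5 to 139 CPM (median 114) in MI hearts and 65.3 to 156 CPM (median 148) in cell sheet hearts in the infarct zone. The border zone gave 15.2 to 25.8 CPM (median 19.1) in sham hearts, 60 to 149 CPM (median 88.9) in MI hearts and 62.8 to 114 CPM (median 86.8) in cell sheet hearts, and the remote zone 14.2 to 24.6 CPM (median 16.5) in sham hearts, 26.4 to 62 CPM (median 53.5) in MI hearts and 17.5 to 88.3 CPM (median 22.9) in cell sheet hearts. All MI hearts exceeded all sham hearts in each zone. Its rise over sham was 2.48 ± 0.26 (5.6-fold, adjusted p = 6.73e-05) in the infarct zone, 2.28 ± 0.24 (4.85-fold, adjusted p = 0.000124) in the border zone and 1.40 ± 0.23 (2.63-fold, adjusted p = 0.00168) in the remote zone.

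Mfap4 and Mfap5 encode glycoproteins that attach to microfibrils. Mfap4 lay at 252 to 434 CPM (median 308) in sham hearts, 725 to 1627 CPM (median 1370.4) in MI hearts and 1019.7 to 1557 CPM (median 1441) in cell sheet hearts in the infarct zone and at 220.4 to 408 CPM (median 341) in sham hearts, 749.6 to 1488 CPM (median 1157) in MI hearts and 649 to 1379 CPM (median 996) in cell sheet hearts in the border zone. The remote zone gave 198 to 300.2 CPM (median 246) in sham hearts, 497 to 1100.0 CPM (median 808) in MI hearts and 225 to 1198 CPM (median 309) in cell sheet hearts. Over sham, Mfap4 rose by 2.01 ± 0.21 (4.03-fold, adjusted p = 5.77e-05) in the infarct zone, 1.78 ± 0.20 (3.45-fold, adjusted p = 0.000151) in the border zone and 1.62 ± 0.20 (3.08-fold, adjusted p = 0.000583) in the remote zone, with no overlap between those groups in any zone. Mfap5 lay at 24.4 to 53.4 CPM (median 33.5) in sham hearts, 125 to 231 CPM (median 153) in MI hearts and 123 to 239.6 CPM (median 189.6) in cell sheet hearts in the infarct zone and at 25 to 47.8 CPM (median 34.1) in sham hearts, 113 to 194 CPM (median 135) in MI hearts and 115 to 168 CPM (median 135) in cell sheet hearts in the border zone. Its remote zone levels were 25.4 to 40.6 CPM (median 30.6) in sham hearts, 70.4 to 193 CPM (median 137) in MI hearts and 22.5 to 185 CPM (median 35.7) in cell sheet hearts. Its MI range also cleared the sham range in all 3 zones. Mfap5 rose over sham by 2.22 ± 0.23 (4.66-fold, adjusted p = 6.4e-05) in the infarct zone, 2.05 ± 0.20 (4.14-fold, adjusted p = 0.000106) in the border zone and 2.08 ± 0.25 (4.23-fold, adjusted p = 0.000583) in the remote zone, values that lay close together.

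Emilin1, which encodes a glycoprotein at the interface of elastin and microfibrils, had the smallest rise of the set in the infarct zone. It lay at 72.2 to 149 CPM (median 93.3) in sham hearts, 145 to 248 CPM (median 193) in MI hearts and 142 to 284 CPM (median 227) in cell sheet hearts there, at 90 to 176 CPM (median 92.3) in sham hearts, 128 to 289 CPM (median 172) in MI hearts and 143 to 269 CPM (median 173) in cell sheet hearts in the border zone and at 67.2 to 142 CPM (median 74.3) in sham hearts, 78.8 to 139 CPM (median 103) in MI hearts and 73.6 to 182 CPM (median 86.8) in cell sheet hearts in the remote zone. The MI and sham groups overlapped in every zone. Sham replicate 5 lay at 149, 176 and 142 CPM in the infarct, border and remote zone, while the other 5 sham hearts reached at most 93.8, 96.8 and 87.9 CPM. Without that animal the groups overlapped in the remote zone alone. Emilin1 was higher in MI than in sham hearts by 1.02 ± 0.18 (2.03-fold, adjusted p = 0.00136) in the infarct zone and 0.90 ± 0.24 (1.87-fold, adjusted p = 0.0129) in the border zone. In the remote zone the difference was 0.33 ± 0.20 (adjusted p = 0.241), and without sham replicate 5 it was 0.54 ± 0.14 (adjusted p = 0.00469). Leaving out the sham heart with the highest Emilin1 widens the difference by construction. The second value is therefore a description with no weight as a test.

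The second question was whether the cell sheet changed these genes in the infarcted heart. In the infarct zone no member was called between cell sheet and MI hearts, and 0% of the 16196 genes tested were called by edgeR, with 1341 genes at an unadjusted p under 0.05. DESeq2 called 85 genes there and no member. In the border zone 1 of 10 members was called, against 18.0% of all genes in either direction. That gene was Fbn2. With the infarct and border counts of each heart summed, Fbn2 was again the 1 member called, against 12.1% of all genes.

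**Figure D2:**
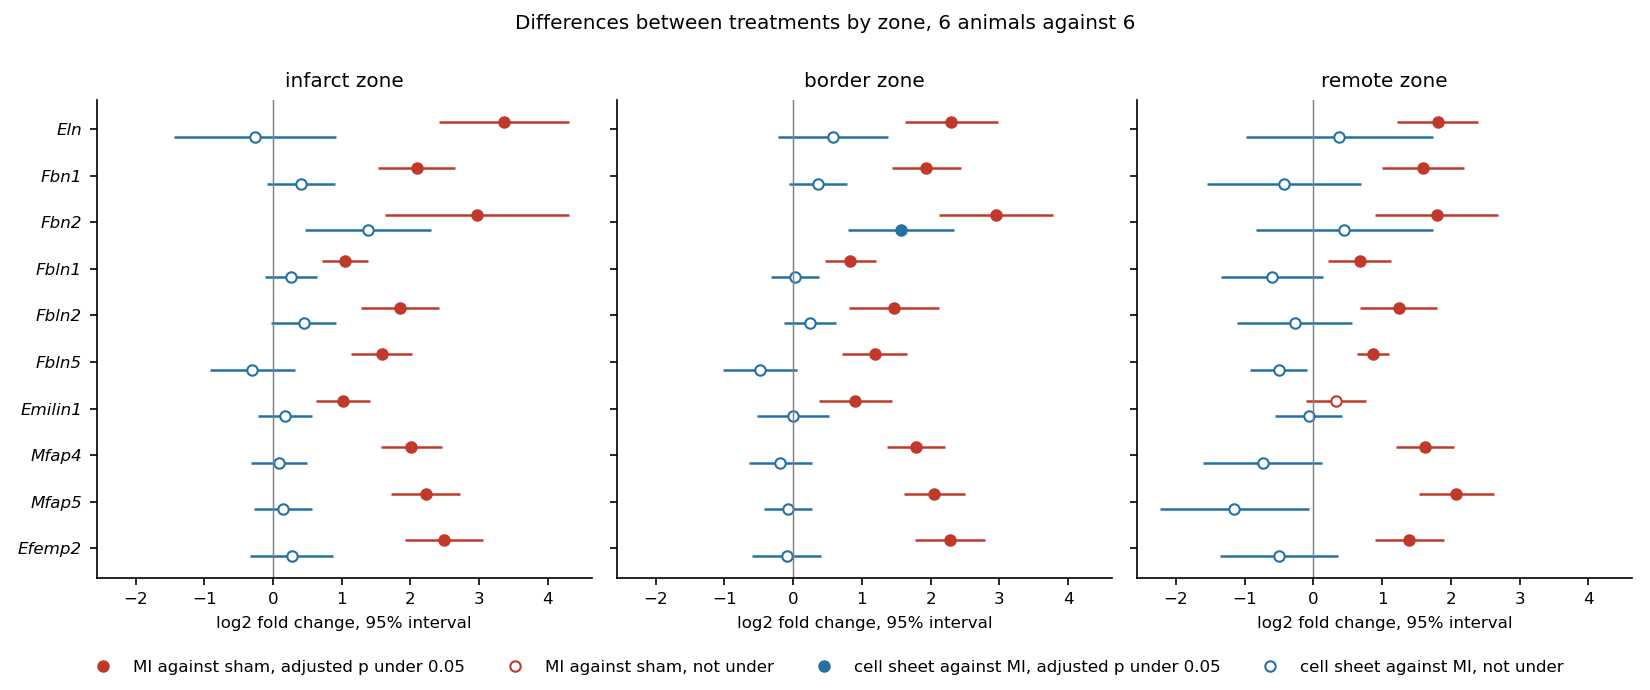
Log2 fold change of each member with its 95% interval for MI against sham and for cell sheet against MI, by zone, 6 animals against 6. Filled points have an adjusted p under 0.05, which holds for every MI point other than Emilin1 in the remote zone, and for Fbn2 in the border zone as the lone filled cell sheet point.

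Fbn2 was higher in cell sheet than in MI hearts by 1.56 ± 0.35 (2.95-fold, adjusted p = 0.0104) in the border zone. The groups overlapped, since 1 cell sheet heart at 13.8 CPM lay below the highest MI heart at 25.9, and 4.03% of genes tested did not overlap in the higher direction. In the infarct zone the difference was 1.38 ± 0.42 (2.61-fold, adjusted p = 0.473), and on the summed counts 1.49 ± 0.27 (2.82-fold, adjusted p = 0.006). With the replicate number as a block, which marks different rats in the 2 treatments, the border zone value was 1.60 (adjusted p = 0.0802) and the summed value 1.504 (adjusted p = 0.0614). Leaving out any 1 animal kept both calls. Beside this difference, 2 of 4 adipocyte markers, 2 of 4 B and plasma cell markers, 2 of 8 smooth muscle markers and 1 of 8 endothelial markers tested were called higher, 1 of 8 macrophage markers lower and no other marker. The summed adipocyte markers were 19.8 to 1427 CPM (median 561) in cell sheet and 38.9 to 273 CPM (median 103) in MI border zones. Those of B and plasma cells were 3.35 to 33.9 CPM (median 16) and 2.22 to 5.07 CPM (median 3.44). Both lists were highest and lowest among cell sheet hearts in replicates 6 and 3, which also had the highest and lowest Fbn2. Over all 54 libraries, less the group means, the Pearson r of Fbn2 with the B and plasma cell markers was -0.03. With the adipocyte, mesothelial, myofibroblast and cardiomyocyte markers it was 0.29, 0.36, 0.30 and -0.29. The other lists lay between -0.10 for lung and 0.18 for smooth muscle. Without the libraries that stood apart, r was 0.28 for B and plasma cells. It was then 0.35, 0.28, 0.50 and -0.40 for those 4 lists, with the rest between -0.36 for endothelium and 0.38 for macrophages. The macrophage markers were 1785 to 5673 CPM (median 2699) and 2757 to 8584 CPM (median 6306). Those of smooth muscle were 777 to 2146 CPM (median 1511) and 869 to 1656 CPM (median 1523), and those of endothelium 1193 to 1617 CPM (median 1330.0) and 916 to 1349 CPM (median 1211). The cardiomyocyte markers were 122 to 22414 CPM (median 16450) and 3488 to 22107 CPM (median 16811). Cell sheet replicate 1 stood apart at 122 CPM, with the next lowest cell sheet heart at 7057, and its Fbn2 was 50.4 CPM. All defining markers of these lists had counts in both groups. Their part in the result was not tested.

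The other 9 members did not pass the test in either of these zones. In the border zone Eln differed from MI by 0.58 (95% interval -0.22 to 1.37), Fbn1 by 0.36 (95% interval -0.06 to 0.78) and Fbln5 by -0.48 (95% interval -1.02 to 0.06) on the log2 scale. The intervals of Fbln1 (-0.32 to 0.38) and Mfap5 (-0.43 to 0.27) were the narrowest and also held 0, as did that of Efemp2 (-0.60 to 0.41). Emilin1 differed by 0.00 (95% interval -0.52 to 0.52), Fbln2 by 0.24 (95% interval -0.14 to 0.62) and Mfap4 by -0.19 (95% interval -0.64 to 0.27). In the infarct zone Eln had the widest interval, at -0.26 (95% interval -1.44 to 0.91). Fbln2 differed by 0.45 (95% interval -0.03 to 0.92) and Fbn1 by 0.41 (95% interval -0.08 to 0.90) there. The values of Fbln1, Efemp2 and Fbln5 were 0.26 ± 0.18, 0.27 ± 0.28 and -0.30 ± 0.28. Emilin1, Mfap5 and Mfap4 lay closer to 0, at 0.18 ± 0.18, 0.15 ± 0.19 and 0.09 ± 0.19. That none passed does not show that the groups were alike.

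In the remote zone the number of members called turned on 1 animal. Over all 6 cell sheet hearts no member was called against MI, with 17.1% of all genes called in either direction. The differences were -1.15 ± 0.50 (adjusted p = 0.121) for Mfap5, -0.74 ± 0.40 (adjusted p = 0.206) for Mfap4, -0.60 ± 0.34 (adjusted p = 0.227) for Fbln1 and -0.51 ± 0.19 (adjusted p = 0.0797) for Fbln5. Efemp2 stood at -0.50 ± 0.40, Fbn1 at -0.43 ± 0.52, Fbln2 at -0.27 ± 0.39 and Emilin1 at -0.07 ± 0.23, and above 0 were Fbn2 at 0.45 ± 0.60 and Eln at 0.37 ± 0.63. A fit of all 9 groups together called Mfap4 and Mfap5, and DESeq2 called Fbln5. Replicate 1 lay at 2200.5 CPM for Eln and the other 5 at 144 to 1133. For Eln, replicate 4 at 1133 CPM also exceeded the highest MI heart at 946. For Mfap5 it lay at 185 and the others at 22.5 to 58.6 CPM. In this library the summed cardiomyocyte markers were the lowest of the group at 17166 CPM, and the myofibroblast and macrophage markers the highest at 4052 and 3107 CPM, against group medians of 44275, 369 and 502. The part of this makeup in the levels was not tested.

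Replicate 1 was singled out for its high levels of these same members, so leaving it out lowers the cell sheet level by construction, and the values without it are a description with no weight as a test. Without it, the fit put 7 of 10 members lower in cell sheet than in MI remote zones at an adjusted p under 0.05, and 20.8% of all genes. Mfap5 stood at -1.94 ± 0.31, Mfap4 at -1.29 ± 0.25 and Fbn1 at -1.26 ± 0.32 on the log2 scale. Efemp2, Fbln1, Fbln2 and Fbln5 stood at -1.10 ± 0.23, -1.01 ± 0.24, -0.87 ± 0.21 and -0.75 ± 0.10. The 3 others were Eln at -0.44 ± 0.50, Fbn2 at -0.44 ± 0.43 and Emilin1 at -0.31 ± 0.16. Cell type markers moved with these values. In the 5 remaining cell sheet hearts the summed cardiomyocyte markers were 37342 to 54030.5 CPM and the smooth muscle markers 1834 to 2469 CPM, all above the MI hearts at 21492 to 34742 and 1235 to 1831. The macrophage markers were 411 to 766 CPM and the neutrophil markers 3.08 to 10.3 CPM, all below MI at 862 to 3152 and 11.9 to 78.8. The fibroblast markers, at 2628 to 3866 and 2839 to 5099 CPM, and the myofibroblast markers, at 186 to 560.3 and 336 to 2231 CPM, overlapped. Their part in the members' values was not tested.

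Set against sham, which shares its libraries with the comparison of MI and sham, cell sheet hearts were higher for 10 of 10 members in the infarct zone (28.6% of all genes) and for 10 in the border zone (20.4%). Fbn2 had the largest differences, at 4.35 ± 0.59 (20.5-fold, adjusted p = 0.000164) and 4.50 ± 0.42 (22.6-fold, adjusted p = 1.83e-05). Eln followed with 3.11 ± 0.45 (adjusted p = 0.000253) and 2.85 ± 0.32 (adjusted p = 4.71e-05). In the infarct zone the 8 others rose by 1.23 (Emilin1) to 2.78 (Efemp2), with Fbln5 at 1.29 ± 0.26, Fbln1 at 1.33 ± 0.20, Mfap4 at 2.12 ± 0.17, Fbln2 at 2.29 ± 0.30, Mfap5 at 2.39 ± 0.23 and Fbn1 at 2.53 ± 0.26 between them. The border zone gave 2.28 ± 0.21 for Fbn1, 2.16 ± 0.18 for Efemp2, 1.94 ± 0.18 for Mfap5, 1.69 ± 0.28 for Fbln2, 1.58 ± 0.20 for Mfap4, 0.89 ± 0.21 for Emilin1 and 0.83 ± 0.14 for Fbln1. Fbln5 in the border zone had the smallest at 0.68 ± 0.22 (adjusted p = 0.0248), and that call was lost without sham replicate 3, cell sheet replicate 4 or cell sheet replicate 5. In the remote zone 0 of 10 members were called by edgeR, where 0.00660% of all genes were higher, which is 1 gene, 1520 genes had an unadjusted p under 0.05 and DESeq2 called 220. The values were 2.19 ± 0.64 (adjusted p = 0.305) for Eln and 2.25 ± 0.61 (adjusted p = 0.255) for Fbn2, which DESeq2 called with adjusted p of 0.0165 and 0.0139. The 8 others lay between 0.07 for Fbln1 and 1.17 for Fbn1. Without cell sheet replicate 1 the count was also 0.

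Each heart gave all 3 zones, so the zones were compared within hearts. In MI hearts 8 of 10 members were higher in the infarct than in the remote zone, against 18.3% of all genes. The differences ran from 0.55 ± 0.14 for Fbln5 to 1.68 ± 0.28 for Eln, with Efemp2 at 1.16 ± 0.20, Fbln2 at 0.90 ± 0.13, Emilin1 at 0.88 ± 0.11, Fbn2 at 0.84 ± 0.13, Mfap4 at 0.76 ± 0.18 and Fbn1 at 0.59 ± 0.15. Fbln1 at 0.48 ± 0.20 (adjusted p = 0.0953) and Mfap5 at 0.39 ± 0.16 (adjusted p = 0.088) were not called. Cell sheet hearts gave 10 of 10, against 31.5%, also without replicate 1. Fbn2, Efemp2 and Mfap5 had the largest differences there, 2.19 ± 0.39, 2.19 ± 0.29 and 2.06 ± 0.39, Fbn1, Mfap4, Fbln2 and Eln followed with 1.87 ± 0.38, 1.87 ± 0.33, 1.84 ± 0.28 and 1.68 ± 0.34, and Fbln1, Emilin1 and Fbln5 had 1.43 ± 0.38, 1.15 ± 0.24 and 0.76 ± 0.23. Sham hearts gave 3 of 10, against 15.9%, with differences of 0.35 ± 0.06 (adjusted p = 0.000716) for Mfap4, 0.28 ± 0.07 (adjusted p = 0.006) for Eln and 0.20 ± 0.06 (adjusted p = 0.027) for Emilin1. The 7 others lay between -0.56 for Fbn2 and 0.28 for Fbln2. With the animal not kept as a block, the sham count was 0. Fbln5 lost its call without MI replicate 4 or 6 in MI hearts and without cell sheet replicate 3, 4 or 5 in cell sheet hearts, and Emilin1 without sham replicate 1, 3 or 6 in sham hearts.

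**Figure D3:**
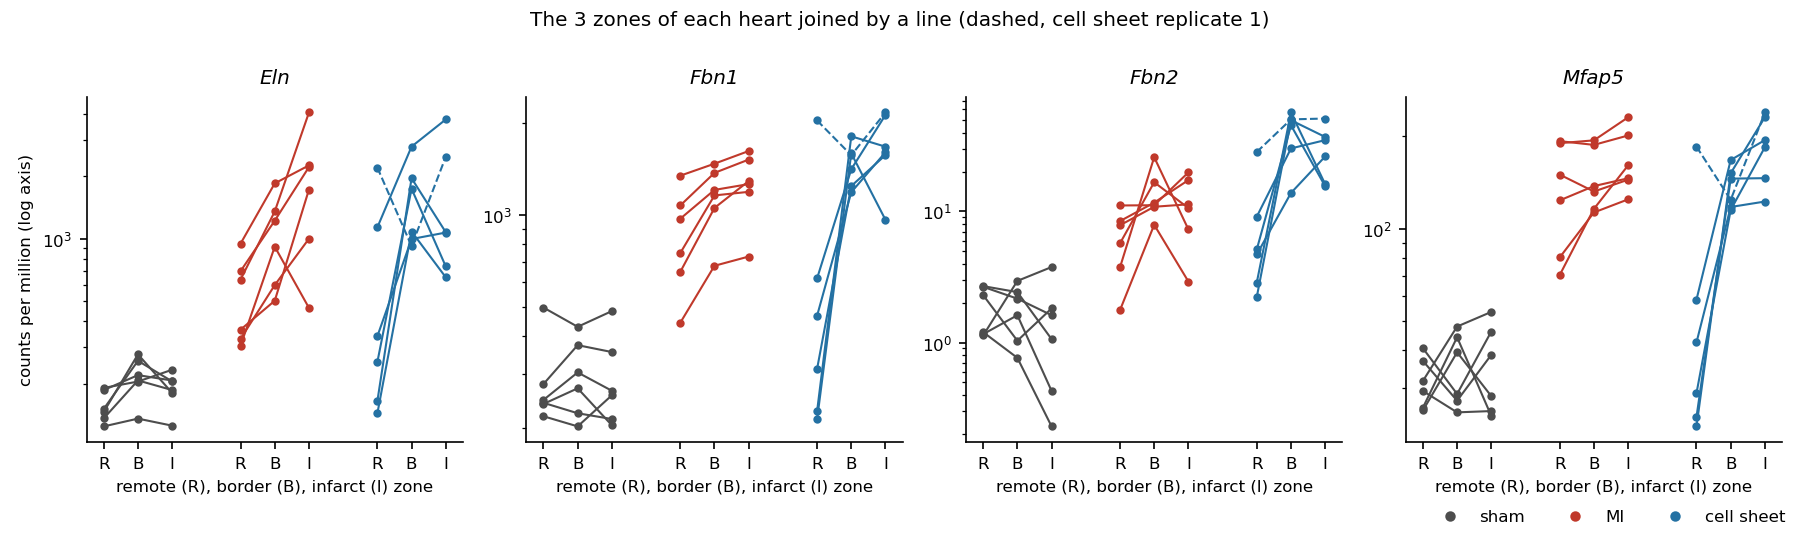
CPM on a log axis for Eln, Fbn1, Fbn2 and Mfap5 in the remote, border and infarct zone, with the zones of 1 heart joined by a line and colors for the treatment. Most cell sheet hearts climb steeply from the remote to the border zone, MI hearts climb less, and the dashed line of cell sheet replicate 1 starts high.

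Eln was higher in the infarct than in the remote zone of all 6 MI hearts, by 0.61 to 2.68 (median 1.64) on the log2 scale, and of all 6 cell sheet hearts, by 0.17 to 2.71 (median 1.69). Mfap5 differed by -0.06 to 1.19 (median 0.26) in MI hearts, where 5 of 6 were higher, and by 0.37 to 3.36 (median 2.16) in cell sheet hearts. For Fbn1 these values were 0.27 to 0.99 (median 0.58) and 0.09 to 2.88 (median 1.97). The low end of the cell sheet range was replicate 1 for all 3 genes. Without it the 5 other hearts spanned 1.53 to 2.71 (median 1.73) for Eln, 1.53 to 3.36 (median 2.59) for Mfap5 and 1.78 to 2.88 (median 2.17) for Fbn1. The infarct and border zones lay closer together. Eln was higher in the infarct than in the border zone of 5 of 6 MI hearts and 3 of 6 cell sheet hearts, and Mfap5 in 6 of 6 of each.

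Whether the rise after MI differed between zones was tested as an interaction within hearts. For 6 of 10 members the rise was larger in the infarct than in the remote zone, against 13.6% of all genes. Eln had the largest such difference at 1.41 ± 0.28 (adjusted p = 0.00359), followed by Fbn2 at 1.39 ± 0.46 (adjusted p = 0.0359) and Efemp2 at 1.07 ± 0.25 (adjusted p = 0.00748). Emilin1 at 0.69 ± 0.13 (adjusted p = 0.00247), Fbln5 at 0.68 ± 0.15 (adjusted p = 0.0061) and Fbn1 at 0.56 ± 0.16 (adjusted p = 0.022) were also called. Fbln2 at 0.63 ± 0.23 (adjusted p = 0.0565), Mfap4 at 0.42 ± 0.18 (adjusted p = 0.0868), Fbln1 at 0.45 ± 0.22 (adjusted p = 0.136) and Mfap5 at 0.25 ± 0.21 (adjusted p = 0.382) were not. The Fbn2 call was lost when any 1 animal other than sham replicate 3, MI replicate 1 or MI replicate 5 was left out, and the Fbn1 call without sham replicate 2 or 3.

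Whether the difference between cell sheet and MI hearts varied by zone gave no call over all animals. It was 0 of 10 members for border minus remote, with 0% of all genes called and 3430 at an unadjusted p under 0.05, and 0 of 10 for infarct minus remote, with 0% and 4190. DESeq2 called 1199 and 1733 genes, with 1 and 5 members among them. Mfap5 had the largest values, 1.53 ± 0.46 (adjusted p = 0.126) and 1.69 ± 0.44 (adjusted p = 0.101). The others lay between 0.14 for Fbln5 and 1.47 for Fbn2 in the first and between 0.03 for Eln and 1.37 for Fbn2 in the second. Leaving out cell sheet replicate 1, which was singled out for its high remote zone levels of these members, raises both differences by construction, and what follows is a description only. The fit then put 4 members past the threshold for border minus remote (Fbn1, Fbln2, Mfap4 and Mfap5), with 0.970% of all genes higher, and 7 for infarct minus remote (these with Fbn2, Fbln1 and Efemp2), with 7.98%. Mfap5 stood at 1.91 ± 0.26 and 1.99 ± 0.33, and Fbn1 at 1.67 ± 0.34 and 1.60 ± 0.25.

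Ratios between pairs of members within a library do not depend on how libraries are scaled. The counts of Fbn2 for 100 counts of Fbn1, not corrected for length, were 0.0533 to 1.77 (median 0.527) in sham, 0.404 to 1.38 (median 0.788) in MI and 0.935 to 2.37 (median 1.67) in cell sheet infarct zones. In the border zone they were 0.183 to 1.34 (median 0.581), 0.762 to 2.25 (median 1.07) and 1.17 to 4.01 (median 2.87), and in the remote zone 0.247 to 1.25 (median 0.726), 0.407 to 0.886 (median 0.783) and 0.723 to 2.27 (median 1.38). Cell sheet hearts had the highest median in each zone, with overlap. The ratio exceeded that of MI by 1.09 on the log2 scale (exact permutation p = 0.013, adjusted p = 0.0545) in the infarct zone, 1.15 on the log2 scale (exact permutation p = 0.0152, adjusted p = 0.0545) in the border zone and 0.93 on the log2 scale (exact permutation p = 0.0152, adjusted p = 0.0545) in the remote zone. None of the 36 ratio tests passed the adjusted threshold, and the smallest p that 6 against 6 animals allow is 0.00216.

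Fbln2 counts for 100 of Fbln1 were 13.7 to 57.4 (median 37.2) in sham, 40 to 79.1 (median 62.4) in MI and 38.1 to 110.3 (median 73.1) in cell sheet infarct zones, and MI exceeded sham by 0.83 on the log2 scale (exact permutation p = 0.00866, adjusted p = 0.0545). The Eln to Fbn1 ratio differed between MI and sham infarct zones by 0.98 on the log2 scale (exact permutation p = 0.0368, adjusted p = 0.102) and between cell sheet and MI by -0.68 on the log2 scale (exact permutation p = 0.128, adjusted p = 0.238). Mfap5 for 100 of Mfap4 was 13.6 to 23.1 (median 16) in MI and 9.92 to 15.5 (median 10.8) in cell sheet remote zones, a difference of -0.54 on the log2 scale (exact permutation p = 0.00866, adjusted p = 0.0545). In the infarct zone the same ratio differed between these treatments by 0.02 on the log2 scale (exact permutation p = 0.907, adjusted p = 0.907). Leaving out sham replicate 3 brought 5 ratio comparisons with sham under an adjusted p of 0.05, and leaving out sham replicate 6 brought 7. Sham replicate 5 stood low in the infarct zone. Its log2 ratio of Fbln2 to Fbln1 was -2.87, with the other sham hearts at -1.51 to -0.80. For Eln to Fbn1 it was -1.95, with the others at -0.60 to 0.00. This library lowers the sham mean in both comparisons of MI with sham, and their differences without it are not given.

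**Figure D4:**
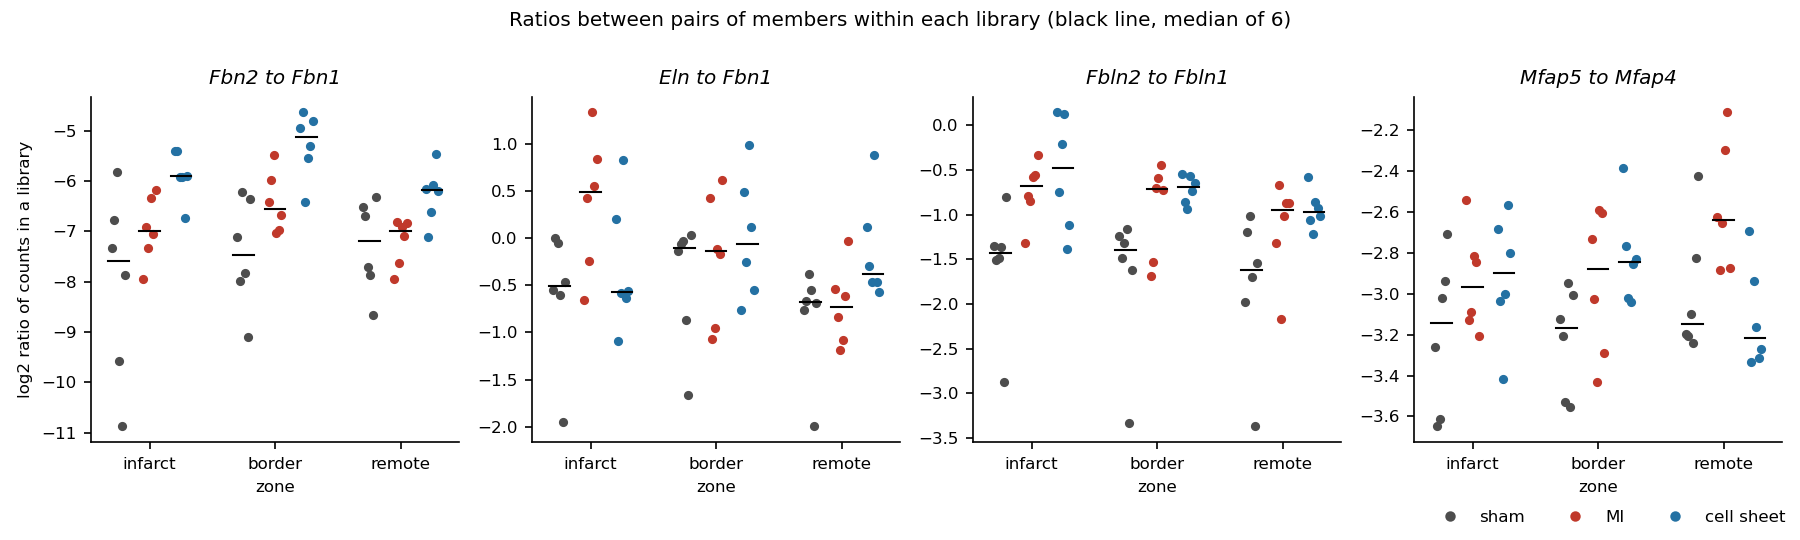
Log2 ratio of the counts of 2 members in each library, for 4 pairs, by zone and treatment, with the median of 6 as a black line. Fbn2 to Fbn1 has its highest medians in cell sheet hearts in all 3 zones, and Mfap5 to Mfap4 is lower in cell sheet than in MI hearts in the remote zone alone.

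Of 31 tested microfibril and elastic fiber partners (latent TGF-β binding proteins, lysyl oxidases and the like), 20 (64.5%) were higher and 0 lower in the infarct zone of MI than of sham hearts, against 22.7% of all genes higher, with a median of 0.73 on the log2 scale. The 3 with the largest change were Ltbp2 at 4.83 ± 0.94, Fbln7 at 4.27 ± 0.58 and Lox, the cross-linking enzyme lysyl oxidase, at 3.90 ± 0.30. Elastases and their inhibitors had 9 higher (64.3%) and 1 lower of 14 tested, led by the macrophage elastase Mmp12 at 4.34 ± 1.44, the cysteine protease Ctsk at 2.57 ± 0.26 and the membrane-bound metalloproteinase Mmp14 at 2.36 ± 0.22. Receptors of elastic fiber proteins had 9 higher (64.3%) and 2 lower of 14. Among these, the integrin subunit Itga8 changed by 3.58 ± 0.39, the galectin Lgals3 by 2.77 ± 0.67 and the fatty acid transporter Cd36 by -1.97 ± 0.38.

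Between cell sheet and MI border zones, where 18.0% of all genes were called in either direction, the same lists had 15.6%, 6.67% and 14.3% called, none above the share of all genes. Of 32 partners, 5 were higher and 0 lower, with a median of 0.13. Fbln7 rose by 1.499 ± 0.32, Hspg2, which encodes the basement membrane proteoglycan perlecan, by 1.12 ± 0.20 and Hmcn1, which encodes hemicentin, by 0.45 ± 0.14 (adjusted p = 0.0498). Of 15 elastases and inhibitors, 1 changed, the cathepsin inhibitor Cst3 at -0.74 ± 0.14. Of 14 receptors, Itga5, a fibronectin receptor subunit, was higher at 0.52 ± 0.13 and Rpsa, which encodes a ribosomal protein also known as a laminin receptor, was lower at -0.80 ± 0.14 on the log2 scale.

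Cell type markers moved beside the members. In the infarct zone of MI against sham, 8 of 8 cardiomyocyte markers were lower, 8 of 8 myofibroblast markers higher, 6 fibroblast markers higher and 1 lower, 6 smooth muscle markers higher and 2 lower, and 4 of 8 macrophage markers higher. The summed myofibroblast markers were 81 to 560.4 CPM (median 122) in sham, 1124 to 3900.2 CPM (median 3089) in MI and 3479 to 7974 CPM (median 4746) in cell sheet infarct zones. No marker list of these had a defining gene at 0. The summed fibroblast markers ranged over 3279 to 6848 CPM (median 5051) in sham and 4026 to 5909 CPM (median 5069.8) in MI. Of the genes that passed the filter in the other lists, 0 endothelial markers were higher and 1 lower of 8, 3 mesothelial higher and 1 lower of 6, 3 neutrophil higher of 4, 1 adipocyte higher of 1, 1 B and plasma cell lower of 3 and 1 lung lower of 1. The summed lung markers reached at most 9.12 CPM in sham, 142 in MI and 153 in cell sheet border zones, with medians of 6.94, 5.86 and 5.75. The high values were those of MI replicate 3 and cell sheet replicate 4. Cell sheet replicate 6 had 53.5 CPM in the infarct zone. In its group, MI border replicate 3 was highest for Fbn2, Fbln2, Emilin1, Mfap4 and Efemp2. Cell sheet border replicate 4 was highest for Eln, Fbln5, Mfap4 and Mfap5, and lowest for Fbln1. Cell sheet infarct replicate 6 was lowest for Eln, Fbn1, Fbln2, Fbln5, Emilin1, Mfap4 and Efemp2. How far the cell makeup accounts for the members' levels was not tested.

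Members were also compared across animals within groups, as a description over 54 libraries after the mean of each group was taken off the log2 CPM. Libraries of a heart are not independent, and libraries share their cell makeup and depth. The 45 pairs of members had a median Pearson r of 0.57, 8 pairs lay above 0.7 and none below 0. Fbn1 varied with Mfap5 (r = 0.87), Mfap4 (0.84) and Efemp2 (0.79), and Emilin1 with Efemp2 (0.82). Fbn2 had the lowest mean r with the other members, 0.40, and Mfap4 the highest, 0.65. Fbn1, Emilin1 and Efemp2 varied with the summed myofibroblast markers (r = 0.84, 0.87 and 0.84), as did Mfap4, Fbln1 and Mfap5 (0.75, 0.70 and 0.65). For Eln, Fbn2, Fbln2 and Fbln5 this was 0.35, 0.30, 0.24 and 0.15. Fbln5 had 0.58 with the smooth muscle markers. Emilin1 had -0.70 with the cardiomyocyte markers and 0.77 with the macrophage markers.

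These values were computed again over 50 libraries, without the remote zone library of cell sheet replicate 1 and the 3 libraries of sham replicate 5. The median r of the pairs was then 0.46, 5 pairs lay above 0.7 and 3 below 0. Fbn1 had 0.83 with Mfap5, 0.79 with Mfap4 and 0.66 with Efemp2, and Emilin1 had 0.80 with Efemp2. The pair of Fbn1 and Fbln2 went from 0.48 to 0.84, the highest of the 45. Fbln1 then had the lowest mean r, 0.27, and Fbn1 the highest, 0.63, so the order of the members by mean r rests on these libraries. With the myofibroblast markers Fbn1, Emilin1 and Efemp2 had 0.71, 0.78 and 0.79, and Fbn2 and Fbln5 0.50 and 0.27. Mfap4, Fbln1 and Mfap5 had 0.75, 0.53 and 0.56 with these markers, Eln had 0.36, and Fbln2 went from 0.24 to 0.68. Fbln5 had 0.58 with the smooth muscle markers, and Emilin1 -0.72 with the cardiomyocyte and 0.63 with the macrophage markers.

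**Figure D5:**
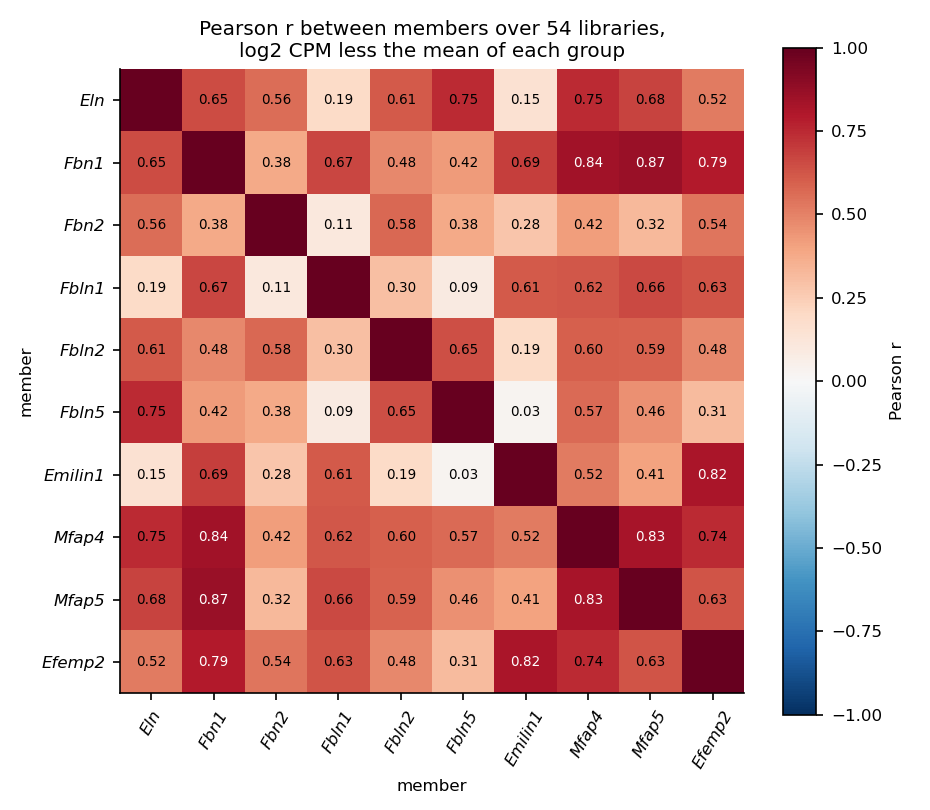
Pearson r between members over 54 libraries, from log2 CPM less the mean of each group, as a color scale from -1 to 1 with each value written in its cell. The darkest cells are Fbn1 with Mfap5 (0.87) and with Mfap4 (0.84), Mfap4 with Mfap5 (0.83) and Emilin1 with Efemp2 (0.82), and the palest is Fbln5 with Emilin1 (0.03).

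The genes with the most similar pattern over all 17742 genes compared were, for Eln, Adamts2 (r = 0.85), which cuts the amino end of procollagen, Piezo2 (0.83) and Tgfb3 (0.83). For Fbn1 they were Loxl1 (0.96), a lysyl oxidase of elastic fibers, Dpysl3 (0.95) and Fstl1 (0.94). Fbn2 had Grb10 (0.78), Ephb3 (0.76) and Pear1 (0.76), the lowest values of any member. Fbln1 was closest to C7 (0.80), Igsf10 (0.77) and Bicc1 (0.77), Fbln2 to Nid1 (0.88), Serpinf1 (0.84) and Itga11 (0.84), and Fbln5 to Unc5b (0.86), LOC684327 (0.83) and Pmepa1 (0.82). Mfap4 had Clec11a (0.92), Fstl1 (0.91) and Pdgfrl (0.90). Mfap5 had Galnt16 (0.88), Pmp22 (0.88) and Angptl2 (0.88). For Efemp2 the closest were Kirrel1 (0.94), the procollagen enhancer Pcolce (0.94) and Txndc5 (0.93), and for Emilin1 Arfgap3 (0.91), Ykt6 (0.90) and Stt3a (0.90). Over the 50 libraries without those that stood apart, 10 of these 30 genes stayed among the 3 most alike, and all had an r of at least 0.61. The others fell in rank, as far as 391 for Serpinf1 with Fbln2. The genes named for Fbn2 fell to ranks 20 to 25.

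The stretches before the annotated start sites of Fbn1, Mfap5 and Efemp2 are shown because Fbn1 varied closely with both others over all 54 libraries. Over the 50 libraries the r of Fbn1 was 0.83 with Mfap5 and 0.66 with Efemp2. It was then 0.84 with Fbln2, whose stretch is not shown, so this choice rests on the libraries that stood apart. The sequences are from RefSeq on the GRCr8 assembly, a later build than the one the reads were aligned to. They hold the 250 bases before the annotated start site, 5′ to 3′ on the strand of the gene. Matches to CCAAT or to the GC box GGGCGG on either strand are in capitals. For Fbn1 the annotated start falls on an ATG, so it may be the start of translation. Its stretch may then not hold the promoter.
Fbn1 (chr3:133203391-133203640, minus strand): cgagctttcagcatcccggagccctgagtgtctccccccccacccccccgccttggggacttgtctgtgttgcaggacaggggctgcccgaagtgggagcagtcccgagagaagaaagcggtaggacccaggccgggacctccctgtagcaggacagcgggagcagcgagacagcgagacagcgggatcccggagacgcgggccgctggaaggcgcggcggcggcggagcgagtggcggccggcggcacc
Mfap5 (chr4:157399669-157399918, plus strand): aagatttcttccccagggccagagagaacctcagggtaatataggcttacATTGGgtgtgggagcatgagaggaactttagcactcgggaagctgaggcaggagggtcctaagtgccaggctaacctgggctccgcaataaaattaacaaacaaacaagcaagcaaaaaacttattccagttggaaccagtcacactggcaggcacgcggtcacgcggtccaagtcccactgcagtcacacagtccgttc
Efemp2 (chr1:212211472-212211721, plus strand): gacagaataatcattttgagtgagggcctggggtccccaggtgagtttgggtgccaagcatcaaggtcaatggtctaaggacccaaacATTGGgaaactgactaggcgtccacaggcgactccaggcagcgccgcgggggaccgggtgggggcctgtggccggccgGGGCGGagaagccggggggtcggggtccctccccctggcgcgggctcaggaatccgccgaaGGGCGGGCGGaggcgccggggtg
The GC content of these stretches was 71.2%, 51.6% and 68.0%. Efemp2 held 3 GC box matches, of which 2 overlap, and 1 CCAAT match, Mfap5 held 1 CCAAT match, and Fbn1 held neither. A stretch was matched for 6 of the 10 members. Among them the annotated start of Fbn2 also falls on an ATG, so for Fbn1 and Fbn2 the matches may not describe promoters. Over 27457 promoters of 300 bases, 250 before and 50 after the start, 34.9% held GGGCGG and 37.7% CCAAT on either strand, and 3 of 6 members held each. TATAAA (14.3% of all promoters) and the AP-1 letters TGANTCA (7.33%) were found in 0 of 6. The TEAD letters CATTCC (13.9%) were found in 2 of 6, Fbn2 and Fbln5. These are matches of letters and say nothing of a factor's binding.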

How the data were processed

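Left ventricular RNA of 18 rats, 3 zones each, was sequenced. The authors aligned the reads with STAR to mRatBN7.2 and deposited whole-number counts per gene for each library, without normalization. Which program counted them, and whether by strand, is not given in the sources used here. The 5 summary lines, which name no gene, held 17.0% to 42.8% of a table and entered neither library sizes nor tests. No pair of libraries within a group held identical counts.

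The main test was the quasi-likelihood F test of edgeR 4.0.16 (glmQLFit and glmQLFTest, run in R 4.3.3 beside limma 3.58.1). Genes were filtered with filterByExpr at its defaults, libraries were scaled by TMM, p-values were adjusted by Benjamini-Hochberg over all genes tested, and 0.05 was the threshold. A fit held only the libraries of its comparison. Errors after ± are standard errors, and 95% intervals use the t quantile at the test's degrees of freedom. Zones were compared with the animal as a block, and differences of an effect between zones as an interaction. Ratios took counts plus 0.5 and were tested by a 2-sided exact permutation test, adjusted over 36 tests. Correlations used log2 CPM with a prior count of 2. The tests were checked on simulated counts first.

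The 10 members and all lists were chosen with earlier results of these data known. Every member was fitted in each comparison and is given by its value or the range it lies in. Of each companion list, the 3 genes with the largest absolute fold change among those called with a mean log2 CPM of at least 1 were named, and for each member the 3 genes most alike. Cell type markers were given as counts called and as summed CPM. Alternatives were DESeq2 1.42.0, library size without TMM factors, no filter, at least 10 counts in every library, the replicate number as a block, all 9 groups in a single fit, another offset for ratios (0.1 counts) and each animal left out in turn. Correlations, differences within hearts and the variation of sham hearts were also computed without libraries that stood apart, a choice made after seeing the data. Same-numbered animals of different treatments are different rats and were not paired. The correlation of their deviations over genes had medians of -0.20 to 0.06. Between zones of a heart, which were kept as a block, the medians were -0.15 to 0.35. These ranges overlap, so the block rests on the numbers in the labels and not on these correlations. Transcript lengths, protein sequences and human transcripts were not used here.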

Additional observations from a re-analysis of the deposited data

Results flagged for a closer look

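In 90 sets of 6 libraries (10 members in 9 groups), the highest or lowest library was tested for a gap to its neighbor, and 9 were marked. Chance alone marks about 1 in 20 groups, and libraries of a heart are not independent. Sham replicate 5 was marked for Emilin1 in the infarct zone (149 CPM, others 72.2 to 93.8), the border zone (176 CPM, others 90.0 to 96.8) and the remote zone (142 CPM, others 67.2 to 87.9), and for Fbn1 in the remote zone (496 CPM, others 219 to 279). Cell sheet replicate 1 was marked in the remote zone for Fbln2 (290.3 CPM, others 59.1 to 94.7), Fbln5 (107 CPM, others 48.3 to 60.8) and Efemp2 (88.3 CPM, others 17.5 to 28.2). MI replicate 1 was marked in the infarct zone on the low side, for Fbln2 (138 CPM, others 234 to 281) and Mfap4 (725 CPM, others 1243 to 1627).

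The rise from sham to MI differed between the infarct and the remote zone, by the interaction test of edgeR within hearts, for 6 members. The share of all genes called higher by that test was 13.6%. The Fbn2 and Fbn1 calls were lost when certain single animals, named above, were left out. On the log2 scale it was larger in the infarct zone by 1.41 for Eln, 1.39 for Fbn2, 1.07 for Efemp2, 0.69 for Emilin1, 0.68 for Fbln5 and 0.56 for Fbn1.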

How the results depend on the processing

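For MI against sham in the 3 zones and for cell sheet against sham in the infarct and border zones, counts of members called stayed within 1.5 times under every alternative run, as did the counts in MI and cell sheet hearts between zones and for the MI effect between zones. Cell sheet against MI in the infarct zone gave 0 members under each. No called member changed direction under any alternative. With the replicate number as a block, the count fell from 1 to 0 for cell sheet against MI in the border zone and from 1 to 0 on the summed counts, and without the animal as a block (no pairing of zones) from 3 to 0 between zones of sham hearts. Dropping it also ended the calls of Fbn1 and Fbn2 in MI hearts and of Eln in cell sheet hearts. The block changed 1 other call of a member, Fbln5 in cell sheet against sham border zones (adjusted p = 0.0898). Cell sheet against MI in the remote zone gave 1 member with DESeq2, 2 with all 9 groups in a single fit and, leaving out 1 animal, 0 to 7. Cell sheet against sham in the remote zone gave 2 with DESeq2 and 2 with all 9 groups. The cell sheet effect between zones gave 1 (border minus remote) and 5 (infarct minus remote) with DESeq2, and 0 to 4 and 0 to 7 leaving out 1 animal. Each upper end came without cell sheet replicate 1, whose high remote zone levels of these members singled it out, so these upper ends are no test. Other causes of these shifts were not tested. Counts of all genes called moved by over 1.5 times in these cases. For cell sheet against MI, the infarct zone went from 0 to 85 with DESeq2 and 6 with all 9 groups in a single fit, the border zone from 2922 to 1214 with the replicate block and 1941 without cell sheet replicate 2, and the remote zone from 2623 to 2 with the block, and to between 1096 (without MI replicate 5) and 6450 (without cell sheet replicate 1). The summed counts went from 2179 to 3324 with DESeq2, 1378 with no filter, 477 with the block and 1223 without cell sheet replicate 2. For MI against sham, the border zone went from 6517 to 4193 with the block and the remote zone from 3952 to 7177 without sham replicate 5. Cell sheet against sham in the remote zone went from 1 to 220 with DESeq2, 183 with all 9 groups, 0 with the block and 17 without sham replicate 5. Between zones, sham hearts went from 4878 to 1081 without the animal as a block, and MI hearts from 5784 to 3236 without MI replicate 4. The cell sheet effect between zones went from 0 to 1199 (border minus remote) and 1733 (infarct minus remote) with DESeq2, and to 216 and 2011 without cell sheet replicate 1. Library size without TMM factors moved the median of all genes between MI and sham infarct zones from -0.02 to 0.24 on the log2 scale, and no member's direction with it. Depth limits Fbn2 in sham hearts, at 4 to 50 counts, and no other member. All members rest on 6 animals a group.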
